A study of Mus musculus with 12 samples.

Results

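The genes described here are 46 mouse genes that carry a cell through mitosis, taken by symbol from a list of named genes. All 46 were found among the 25078 genes of the deposited tables, and all 46 passed the filter on low counts that left 14599 genes for testing. They fall into 9 roles, which run from the spindle assembly checkpoint and the mitotic kinases to the kinetochore, the spindle motors, cytokinesis and chromosome structure.

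The cells were LSK cells, that is lineage-negative, Sca1-positive and c-Kit-positive bone marrow cells, the compartment in which mouse hematopoietic stem cells and multipotent progenitors are found. The groups were preleukemic Cbfb-MYH11 (CM) cells given 3.5 Gy of radiation (CM IR), CM cells incubated alongside without it (CM NIR), wild-type irradiated cells (WT IR) and wild-type unirradiated cells (WT NIR), with 3 libraries each. The genotype field gives WT for all 3 animals of the WT groups, while their titles say control and their library names carry WT for 1 animal and the letter C, which is not explained, for 2. The library names of all 3 CM animals carry the letters CHW, which are not explained either. Cells were sorted first and then irradiated outside the animal, and RNA was taken 24 h later from irradiated and unirradiated cells alike. Each of the 6 mice, 3 CM and 3 WT, gave 1 IR and 1 NIR library, as read from a number that their library names share. Cbfb-MYH11 is a fusion gene known from acute myeloid leukemia. The labels do not describe the allele, the promoter that drives it or the age of the mice.

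Most mitosis genes are transcribed late in the cycle, in G2 and M phase, under the MuvB complex with MYB and FOXM1, and are held low in resting cells by the DREAM complex, in which MuvB is joined by the pocket proteins p107 and p130 and by E2F4. After DNA damage, p53 induces the CDK inhibitor p21, which favours assembly of DREAM. The cell cycle genes homology region (CHR), a short promoter element bound by MuvB, and CCAAT boxes bound by NF-Y are frequent in the promoters of these genes.

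Total counts ran from 68.5 to 111 M per library, and the 46 genes took 0.771% to 0.980% of them. Levels are given below as CPM, counts scaled to library size with TMM factors, and changes as fitted log2 fold changes with their standard errors (SE) from edgeR's quasi-likelihood test over all 12 libraries, with p-values adjusted over the 14599 genes by Benjamini-Hochberg and a threshold of 0.05. The sort markers Kit and Ly6a (Sca1) were above 0 in every library, at 148 to 284 CPM for Kit and at 42.0 to 457 CPM for Ly6a. The libraries of CM animal 3 stood apart from each other: Ly6a was at 144 CPM in its IR library and 457 CPM in its NIR library, and deviations from the group means correlated at 0.13 between them over all genes, against 0.41 to 0.84 in the other 5 animals. Over the 46 mitosis genes the same correlation was 0.67 in CM animal 3 and 0.68 to 0.86 in the other animals. Calls of mitosis genes over both genotypes that are lost without this animal are named below with their values. For calls of genes outside the 46, values without this animal are not given. Trp53inp1, a p53 target that promotes arrest and death and serves here as a check of the labels, averaged 45.2 ± 7.28 CPM in CM IR, 17.2 ± 1.35 in CM NIR, 84.1 ± 3.86 in WT IR and 19.7 ± 0.935 in WT NIR (SD, n = 3 each), with every IR library above every NIR library.

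Per length, the mitosis genes spanned a range of 29.3-fold. Levels between genes are compared here only as the authors' RPKM, reads scaled to exon length and to library size. Top2a, the topoisomerase that untangles sister chromatids, led at a mean of 233 ± 26.3 RPKM over the 12 libraries (SD), followed by Mki67, which coats mitotic chromosomes, at 150.1 ± 20.5, and Ccna2, encoding cyclin A2, at 96.1 ± 9.97. At the low end were Cdc25c, a phosphatase that activates CDK1, at 13.4 ± 1.30 RPKM, Aspm, a spindle pole protein, at 12.9 ± 1.49, and Pttg1, encoding securin, at 7.95 ± 0.650. The median of the 46 means was 39.9 RPKM, and 18 genes averaged at least 50 RPKM while 8 were under 20. Only 3 of the 45 steps between neighbours in this order separated the genes in all 12 libraries: Top2a above Mki67, Mki67 above Ccna2, and Aspm above Pttg1. At every other step the ranges of the neighbours overlapped.

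**Figure D1:**
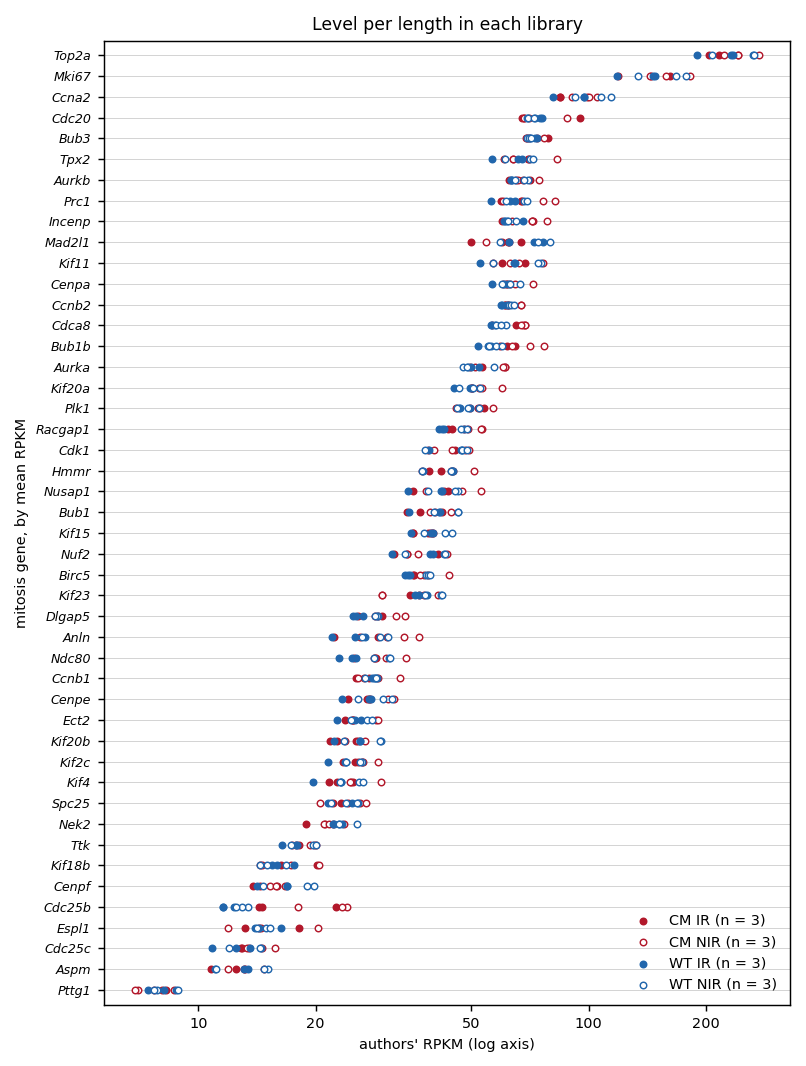
Level of each of the 46 mitosis genes in each of the 12 libraries, as the authors' RPKM on a log axis, with genes ordered by their mean and 1 point per library coloured by group (3 libraries each). The points of the 4 groups lie within the same narrow band for nearly every gene, and Cdc25b, with CM libraries to the right of WT libraries, is an exception.

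After irradiation nearly all mitosis genes had a slightly lower level, in CM and in WT cells. Over both genotypes the fitted IR over NIR change was below 0 for 42 of the 46 genes, against 50.9% of all genes tested, and the median change was -0.13 on the log2 scale against -0.0024 for all genes. The middle part of the 46 changes, between the lower and the upper quartile, ran from -0.17 to -0.07. No gene of the 46 passed the threshold in edgeR's fit without a term for the animal, where 0.308% of all genes did, 44 higher and 1 lower. In that fit 9 of the 46 had an unadjusted p under 0.05 with a lower level, against 1.97% of all genes, and 0 with a higher one, against 3.22%; DESeq2 and limma-voom on the same genes also called 0. In bulk RNA a smaller number of dividing cells and less of these mRNAs in each cell cannot be told apart.

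Within animals the direction was regular. Setting the IR library of each mouse against its own NIR library, 30 of the 46 genes (65.2%) were lower in 6 of 6 animals, as were 6.58% of all genes tested, and 0 of the 46 were higher in 6 of 6 animals, as were 5.93% of all genes. The median change of the 46 genes was -0.14, -0.10 and -0.16 in CM animals 1, 2 and 3, and -0.11, -0.12 and -0.11 in WT animals 1, 2 and 3. By library number the animals form 2 series, one with CM animals 1 and 2 and WT animal 1 and one with CM animal 3 and WT animals 2 and 3, so each series held both genotypes and a lower median in each of its animals. In each animal 37 to 44 of the 46 genes were lower.

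**Figure D2:**
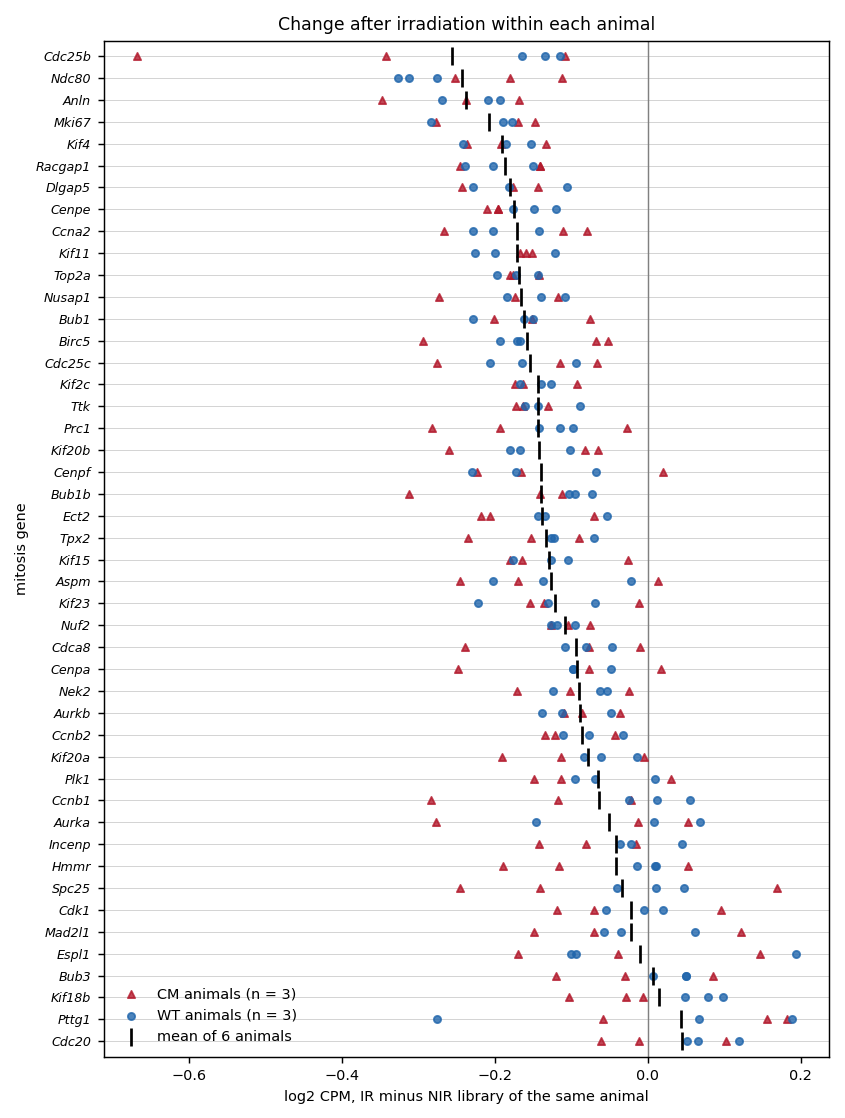
Change of each mitosis gene within each animal, as log2 CPM of the IR library minus log2 CPM of the NIR library of the same mouse (triangles, 3 CM mice; circles, 3 WT mice; bars, mean of 6 animals), ordered by the mean. Points lie left of 0 in all 6 animals for 30 of 46 genes, and Bub3, Kif18b, Pttg1 and Cdc20 have means above 0.

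With the animal as a term in the fit (the replicate block, since each animal gave both libraries), 9 of the 46 genes passed the threshold and all 9 were lower after irradiation, while 0.651% of all genes were called lower and 1.42% higher. The 9 were the kinetochore genes Ndc80 and Cenpe, the kinesins Kif4 and Kif11, the cytokinesis genes Anln and Racgap1, the spindle gene Dlgap5, and Top2a and Mki67. Their level fell by 11.0% (Top2a) to 15.5% (Ndc80). All 9 were lower in 6 of 6 animals. Another 6 genes had an adjusted p under 0.1 with the block, and 31 of the 46 had an unadjusted p under 0.05 with a lower level, against 8.4% of all genes. The calls varied with the animals in the fit: 0 of the 46 were called when CM animal 1, CM animal 2 or any 1 of the 3 WT animals was left out of the blocked fit, and 9 were called, 7 of them shared, without CM animal 3. Without that animal Top2a (-0.16 ± 0.03, adjusted p = 0.0588) and Dlgap5 (-0.16 ± 0.03, adjusted p = 0.0559) no longer passed, and Bub1 and Kif15 did. With the animal as a random effect in limma-voom, 17 were called lower, the same 9 among them. The others were Ttk, Kif2c, Birc5, Bub1, Ccna2, Bub1b, Ect2 and Kif15. Calls over all genes varied too, from 95 lower in the blocked fit with all animals. They ran from 0 to 160 lower in the blocked fits with 1 animal left out. Among 10 other alternatives, which include the random effect, they ran from 0 to 282 lower.

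**Figure D3:**
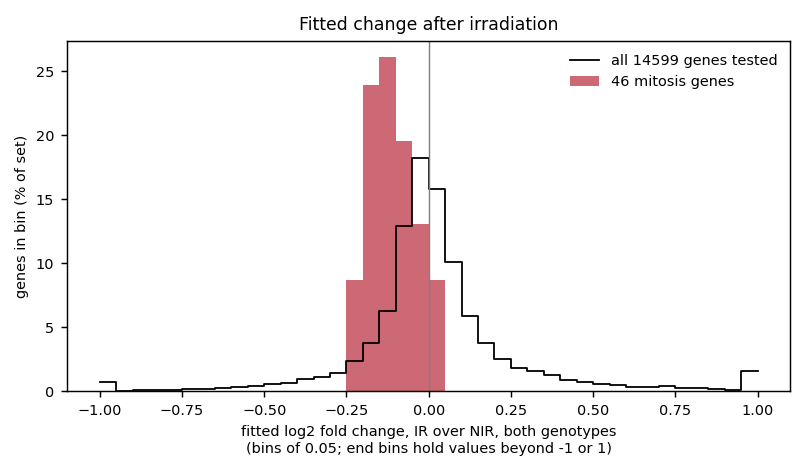
Fitted IR over NIR change over both genotypes on the log2 scale, as the percentage of genes per bin of 0.05, for the 46 mitosis genes (filled bars) and for all 14599 genes tested (line). The mitosis genes form 1 group centred at -0.13 with none above 0.05, inside the range of all genes, which are centred at -0.0024.

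Promoter sequences are shown because the promoters of such genes are known for the CHR. RefSeq (GRCm38.p6, the mm10 assembly) gave a window from 250 bases before to 50 bases after the start for 39 of the 46; Aurkb, Incenp, Ccna2, Cdc25c, Kif20a, Tpx2 and Dlgap5 had none. The letters searched, on both strands, were TTTGAA or TTCGAA for the CHR, whose TTTGAA reads TTCAAA on the other strand, and CCAAT, which reads ATTGG; neither motif contains the other. The CHR letters were present in 31 of the 39 windows (79.5%), against 19.4% of the windows of 27025 genes, and within 50 bases of the start in 29 (74.4%), against 5.29%. CCAAT was present in 29 (74.4%), against 37.9%, and both motifs in 26 (66.7%), against 7.7%. Of the 8 genes with a window that were called lower with the block, 7 had the CHR letters (87.5%). A match is a description of letters and does not show binding. The windows below are those of the 4 genes with the smallest p among these 8, and of Cdc20, the gene with the highest change. They are written 5′ to 3′ on the gene's strand, and capitals mark the CHR and CCAAT letters.
Ndc80, chr17:71526808-71527107, minus strand: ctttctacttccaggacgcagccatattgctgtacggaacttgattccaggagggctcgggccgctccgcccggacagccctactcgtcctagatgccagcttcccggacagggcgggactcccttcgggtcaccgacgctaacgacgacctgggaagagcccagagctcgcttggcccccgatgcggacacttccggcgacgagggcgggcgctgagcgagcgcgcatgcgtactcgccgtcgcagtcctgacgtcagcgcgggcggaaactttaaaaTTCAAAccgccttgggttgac
Anln, chr9:22389157-22389456, minus strand: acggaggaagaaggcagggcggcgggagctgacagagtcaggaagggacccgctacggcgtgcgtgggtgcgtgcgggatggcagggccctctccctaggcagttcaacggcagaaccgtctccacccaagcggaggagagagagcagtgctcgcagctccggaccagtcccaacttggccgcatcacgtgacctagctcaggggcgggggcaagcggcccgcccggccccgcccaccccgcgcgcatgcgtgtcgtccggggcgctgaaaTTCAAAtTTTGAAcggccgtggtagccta
Cenpe, chr3:135212313-135212612, plus strand: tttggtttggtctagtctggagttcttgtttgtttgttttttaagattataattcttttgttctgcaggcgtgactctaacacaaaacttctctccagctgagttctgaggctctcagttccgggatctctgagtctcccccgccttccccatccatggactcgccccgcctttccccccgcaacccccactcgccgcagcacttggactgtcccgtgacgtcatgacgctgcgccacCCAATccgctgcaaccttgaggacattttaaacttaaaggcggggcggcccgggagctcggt
Kif4, chrX:100625815-100626114, plus strand: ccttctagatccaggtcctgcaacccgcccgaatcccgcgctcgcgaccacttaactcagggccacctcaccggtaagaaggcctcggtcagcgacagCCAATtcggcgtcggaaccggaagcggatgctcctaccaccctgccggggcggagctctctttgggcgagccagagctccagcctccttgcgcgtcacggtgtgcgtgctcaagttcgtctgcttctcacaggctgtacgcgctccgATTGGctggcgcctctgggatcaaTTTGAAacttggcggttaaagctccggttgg
Cdc20, chr4:118437294-118437593, minus strand: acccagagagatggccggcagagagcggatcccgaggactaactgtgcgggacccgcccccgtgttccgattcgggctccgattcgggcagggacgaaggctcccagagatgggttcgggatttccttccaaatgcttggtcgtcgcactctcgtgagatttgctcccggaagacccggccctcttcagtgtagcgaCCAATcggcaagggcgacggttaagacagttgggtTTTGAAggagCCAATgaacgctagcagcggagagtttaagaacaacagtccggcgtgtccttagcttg

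In these windows Ndc80 held 1 CHR match, 30 bases after the start, and no CCAAT. Anln held 2 CHR matches, at 22 and 29 bases after the start, in opposite orientation. Cenpe, among the 9 genes called lower, held 1 CCAAT and no CHR letters. Cdc20, which was not called, held 1 CHR match 18 bases before the start between 2 CCAAT boxes. Whether the promoter letters go with the change in level was not tested.

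By role, the lowest changes were those of chromosome structure and cytokinesis. Mki67 (chr7:135689788-135716379, mm10, minus strand) had 1471, 1209 and 1664 CPM in CM IR, against 1629, 1465 and 1871 CPM in CM NIR, and 1205, 1488 and 1509 CPM in WT IR, against 1374, 1811 and 1706 CPM in WT NIR. Each mouse was lower in its IR library, but the spread between mice exceeded the change, so that the IR and NIR groups overlapped in both genotypes. The change over both genotypes was -0.21 ± 0.11 (SE; adjusted p = 1), and -0.21 ± 0.04 with the replicate block (adjusted p = 0.0434). Top2a (chr11:98992947-99024189, minus strand) had 1137, 1070 and 1287 CPM in CM IR, against 1289, 1180 and 1454 CPM in CM NIR. In WT it had 999.8, 1233 and 1225 CPM in IR, against 1104, 1389.5 and 1404 CPM in NIR. The groups overlapped again, and the change was -0.17 ± 0.03 with the block (adjusted p = 0.0479; 0.0588 without CM animal 3).

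The 3 cytokinesis genes were lower in all 6 animals. Anln, encoding anillin, which links the contractile ring to the membrane, lies at chr9:22331214-22389206 on the minus strand. It had 166, 121 and 160.0 CPM in CM IR, against 187, 143 and 203 CPM in CM NIR, and 120.4, 146 and 139 CPM in WT IR, against 145, 168 and 160.1 CPM in WT NIR. Groups overlapped in both genotypes while every mouse was lower, by 0.17 to 0.35 on the log2 scale. Racgap1 (chr15:99620496-99651656, minus strand), a subunit of the centralspindlin complex that places the cleavage furrow, had 152, 135 and 139.8 CPM in CM IR, against 168, 149 and 166 CPM in CM NIR. In WT it had 131, 132 and 129 CPM in IR, all below the 150.4, 146 and 152 CPM of the NIR libraries. Its change was -0.19 ± 0.03 with the block (adjusted p = 0.0409) and -0.19 ± 0.05 without it (adjusted p = 0.377). Ect2, the exchange factor that activates RhoA at the furrow, did not pass with the block, at -0.14 ± 0.03 (adjusted p = 0.109). It passed with the animal as a random effect in limma-voom (adjusted p = 0.0452).

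**Figure D4:**
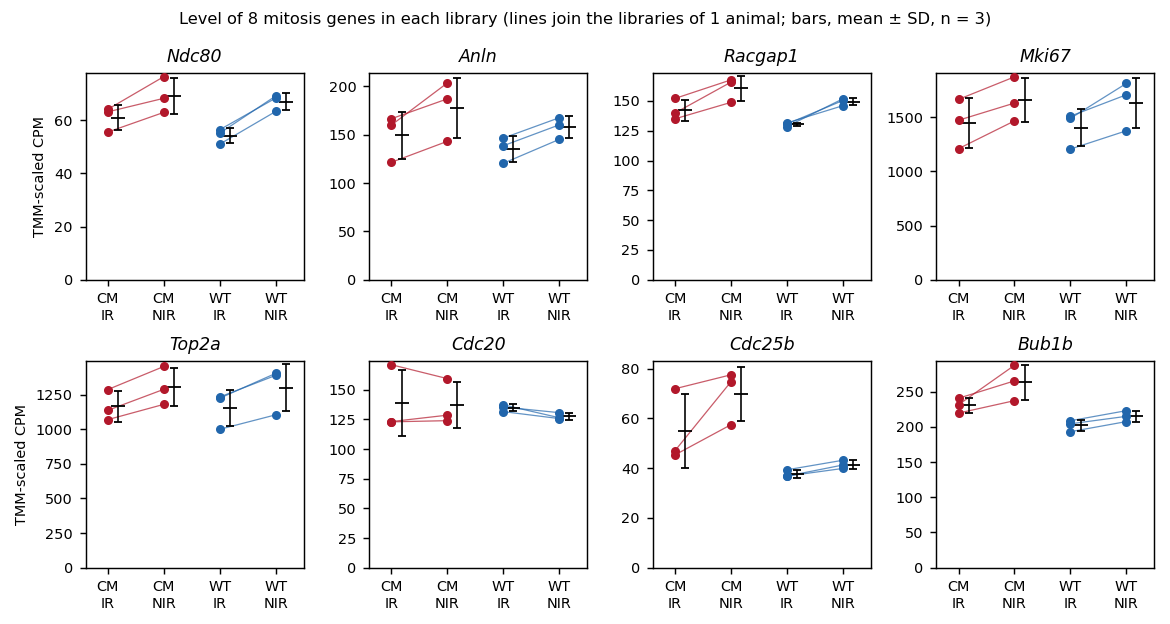
TMM-scaled CPM of 8 mitosis genes in each library, with lines joining the IR and NIR library of 1 mouse and bars for the mean ± SD of 3 libraries; each vertical axis starts at 0. For Ndc80, Anln, Racgap1, Mki67, Top2a, Cdc25b and Bub1b every line is lower at its IR end, while Cdc20 is higher in all 3 WT mice and in 1 of 3 CM mice, and Cdc25b and Bub1b lie higher in CM than in WT.

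Among the 6 centromere and kinetochore genes, all fitted changes were below 0 and 3 were lower in 6 of 6 animals. Ndc80 (chr17:71496100-71526857, minus strand), the kinetochore protein that grips microtubule ends, had the lowest adjusted p of the 46. It had 63.1, 55.5 and 64.1 CPM in CM IR, against 68.2, 62.9 and 76.3 CPM in CM NIR, and 51.0, 56.4 and 55.1 CPM in WT IR, against 63.3, 68.3 and 69.1 CPM in WT NIR. The WT groups did not overlap, while in CM the lowest NIR library lay below the higher IR libraries. Ndc80 was the 1 mitosis gene called within WT alone with the block, at -0.30 ± 0.05 (adjusted p = 0.038), where 0.178% of all genes were called lower. Without the block the WT value was -0.30 ± 0.10 (adjusted p = 0.633), and over both genotypes the blocked value was -0.24 ± 0.03 (adjusted p = 0.0234). Cenpe (chr3:135212563-135273540, plus strand), the kinetochore motor that aligns chromosomes, averaged 207 ± 15.03 CPM in CM IR, against 238 ± 18.2 CPM in CM NIR, and 207 ± 19.3 CPM in WT IR, against 229 ± 22.1 CPM in WT NIR (SD, n = 3). Its blocked change was -0.17 ± 0.03 (adjusted p = 0.036). Spc25, which belongs to the same complex, had -0.03 ± 0.06 with the block and was lower in 3 of 6 animals, and Nuf2, another subunit, had -0.11 ± 0.03 and was lower in all 6.

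Of the 8 kinesins, 7 were lower in 6 of 6 animals. Kif4, a chromosome-bound motor that shapes the central spindle, averaged 110.2 ± 8.99 CPM in CM IR, against 126 ± 13.6 CPM in CM NIR, and 105 ± 9.77 CPM in WT IR, against 119.8 ± 8.07 CPM in WT NIR. Its change was -0.19 ± 0.03 with the block (adjusted p = 0.0379), and that of Kif11, the motor that pushes spindle poles apart, was -0.17 ± 0.03 (adjusted p = 0.0429). Kif2c, a kinesin that takes microtubules apart at centromeres, did not pass with the block (-0.14 ± 0.03, adjusted p = 0.0647). It passed with the animal as a random effect in limma-voom (adjusted p = 0.0203). Its IR and NIR groups did not overlap in either genotype. In CM it had 78.4, 72.9 and 80.9 CPM in IR, against 83.6, 82.2 and 90.6 CPM in NIR. In WT it had 66.8, 74.3 and 74.0 CPM in IR, against 75.04, 81.8 and 80.8 CPM in NIR. The 1 kinesin outside this pattern was Kif18b, which acts on microtubule ends outside the spindle, at 0.01 ± 0.03 with the block.

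The 6 spindle microtubule genes all had fitted changes below 0, and 4 were lower in 6 of 6 animals. Dlgap5, encoding HURP, a stabiliser of kinetochore fibres, had 88.4, 76.8 and 86.2 CPM in CM IR, against 97.7, 86.7 and 102 CPM in CM NIR, and 74.4, 75.7 and 79.3 CPM in WT IR, against 87.2, 85.8 and 85.3 CPM in WT NIR. The WT groups did not overlap, and the blocked change was -0.18 ± 0.03 (adjusted p = 0.0486; 0.0559 without CM animal 3). Prc1, the crosslinker of the central spindle, had -0.14 ± 0.04 with the block (adjusted p = 0.136). Hmmr, a spindle pole adaptor, had the change nearest 0 in this role, at -0.04 ± 0.04.

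The spindle assembly checkpoint, which holds anaphase until all kinetochores are attached, had 4 of 5 fitted changes below 0. Ttk, the kinase that starts the signal, had 54.7, 57.0 and 56.7 CPM in CM IR, below all of the 61.6, 62.5 and 63.5 CPM in CM NIR, and 51.6, 56.1 and 56.4 CPM in WT IR, against 54.8, 62.0 and 63.1 CPM in WT NIR. Its blocked change was -0.14 ± 0.03 (adjusted p = 0.0678), close to those of Bub1 (-0.16 ± 0.03, adjusted p = 0.0558) and Bub1b (-0.14 ± 0.04, adjusted p = 0.119). These 3 were lower in 6 of 6 animals and did not pass with the block. With the animal as a random effect in limma-voom all 3 passed. Their adjusted p was 0.0189 for Ttk, 0.0334 for Bub1 and 0.041 for Bub1b. The other two had values near 0, at -0.02 ± 0.04 for Mad2l1, encoding MAD2, an inhibitor of CDC20, and 0.01 ± 0.03 for Bub3, a partner of BUB1 and BubR1. Whether these differ from the other 3 was not tested.

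The Aurora kinases and the chromosomal passenger complex, which corrects wrong attachments, had 5 of 5 fitted changes below 0. The median was -0.09, with no call with the block. Birc5, encoding survivin, averaged 126 ± 4.52 CPM in CM IR, against 139 ± 12.8 CPM in CM NIR, and 119 ± 1.79 CPM in WT IR, against 134 ± 1.27 CPM in WT NIR (SD, n = 3). Its blocked change was -0.16 ± 0.04 (adjusted p = 0.117), and that of Aurkb, the kinase of the complex, was -0.09 ± 0.03 (adjusted p = 0.191). With the animal as a random effect in limma-voom Birc5 passed (adjusted p = 0.0292) and Aurkb did not (adjusted p = 0.106). Both genes had WT IR libraries below all WT NIR libraries.

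Among the mitotic kinases, cyclins and CDC25 phosphatases, 8 of 8 fitted changes were below 0, with a median of -0.09 and no call with the block. Ccna2 had 288, 288 and 341 CPM in CM IR, against 346, 311 and 361 CPM in CM NIR, and 276, 332 and 332 CPM in WT IR, against 318, 367 and 389 CPM in WT NIR. It was lower in every mouse, with overlapping groups and a blocked change of -0.17 ± 0.04 (adjusted p = 0.0691). With the animal as a random effect in limma-voom Ccna2 passed (adjusted p = 0.037). Cdk1, the kinase that drives mitotic entry, had -0.02 ± 0.04 with the block, and its partner Ccnb1, encoding cyclin B1, had -0.06 ± 0.04. Cdc25b, the phosphatase that starts CDK1 activation, had the lowest fitted change of the 46 at -0.26 ± 0.07 with the block (adjusted p = 0.136). That value was uneven: its within-animal changes were -0.11, -0.34 and -0.67 in CM animals 1, 2 and 3, and -0.13, -0.16 and -0.12 in the WT animals. Without CM animal 3 the blocked change of Cdc25b was -0.176 ± 0.04 (adjusted p = 0.0798). Among the genes named by the fixed rule, those of Ndc80 (-0.22), Mki67 (-0.21), Anln (-0.21) and Ccna2 (-0.184) were then lower.

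Anaphase onset was the role whose median change lay above 0, at 0.04. Cdc20 (chr4:118432901-118437343, minus strand), which activates the anaphase promoting complex, had 123, 171 and 123 CPM in CM IR, against 129, 159 and 124 CPM in CM NIR, and 137, 132 and 135 CPM in WT IR, against 126, 126 and 131 CPM in WT NIR. It was the only mitosis gene whose WT IR libraries all lay above the WT NIR libraries, a state that 7.47% of all genes had. Cdc20 overlaps Elovl1 on the opposite strand, as Ccna2 does Exosc9, Nusap1 does Oip5 and Kif20a does Brd8 and Cdc23; the labels do not state the strand setting of the counting, so reads of such pairs may not be told apart. Its change did not pass, at 0.04 ± 0.03 with the block (adjusted p = 0.551). Pttg1 had 14.4, 13.8 and 14.98 CPM in CM IR, against 12.7, 12.4 and 15.6 CPM in CM NIR, and 13.3, 14.7 and 15.7 CPM in WT IR, against 16.1, 14.0 and 13.8 CPM in WT NIR. It was lower in 2 of 6 animals and its change was 0.04 ± 0.07 with the block (adjusted p = 0.818). Espl1, encoding separase, had -0.01 ± 0.06.

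Counting groups that did not overlap, 5 of the 46 genes were lower in CM IR than in CM NIR (Ttk, Ccnb2, Cdc25c, Kif2c and Kif15), against 0.986% of all genes, and 0 were higher, against 1.57%. In WT, 9 were lower after irradiation (Aurkb, Birc5, Cdca8, Ccnb2, Cdc25b, Ndc80, Kif2c, Dlgap5 and Racgap1), against 6.63% of all genes. Within CM alone 44 of the 46 fitted changes were below 0, as were 50.4% of all genes, with a median of -0.13. Within WT alone 39 were below 0, as were 52.6% of all genes, with a median of -0.12. Neither genotype had a mitosis gene past the threshold in the fit without the block, where 0.00685% of all genes passed in CM and 0.116% in WT. At an unadjusted p under 0.05, 3 were lower in CM, against 0.247% of all genes, and 3 in WT, against 1.51%; DESeq2 and limma-voom called 0 in each genotype.

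The difference of the IR responses, CM minus WT, was not detectable for any mitosis gene. No gene of the 46 and 0% of all genes passed in edgeR, 0 of the 46 had an unadjusted p under 0.05 in either direction, against 0.39% of all genes lower and 0.336% higher, and neither DESeq2 nor limma-voom called one. Without the block the median difference was -0.02 on the log2 scale, with SEs of 0.09 to 0.25 for single genes. The lowest was that of Cdc25b (-0.21 ± 0.24) and the highest that of Ndc80 (0.12 ± 0.14), and the smallest unadjusted p was 0.255. With SEs of this size, those of the fit without the block, a difference as large as the responses themselves would not have been called. With the replicate block 0% of all genes passed as well. There 0 of the 46 had an unadjusted p under 0.05, against 1.75% of all genes lower and 1.1% higher. With the animal as a random effect in limma-voom, Cdc25b had -0.23 ± 0.14 (unadjusted p = 0.121) and Ndc80 0.12 ± 0.07 (unadjusted p = 0.0986). In that fit Ccnb1 had -0.16 ± 0.08 (unadjusted p = 0.0695).

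Markers of more mature cells also differed in level between IR and NIR libraries. All 11 tested genes of a 15-gene erythroid list had fitted changes below 0 over both genotypes, with a median of -1.30, and Car1 and Ermap were called lower with the block. The summed level of the list was 582 to 604 CPM in CM IR, against 634 to 714 CPM in CM NIR, and 658 to 772 CPM in WT IR, against 706 to 1090.5 CPM in WT NIR. The globin genes Hba-a1, Hba-a2, Hbb-bs and Hbb-bt had 0 counts in every library. As a mean log2 level relative to all libraries, the erythroid list stood at 0.71, -1.21 and -0.07 in CM IR, against 0.75, 0.14 and 1.01 in CM NIR, and at -0.23, -1.28 and -0.98 in WT IR, against 1.75, -0.58 and -0.0060 in WT NIR. It was lower in the IR library of all 6 animals, by least in CM animal 1. An 8-gene list of myeloid progenitor markers had a higher summed level in the IR library of all 6 animals, at 4208, 4847 and 3665 CPM in CM IR, against 3944, 3495 and 3625 CPM in CM NIR, and at 6085, 5545 and 5184 CPM in WT IR, against 4624, 3926 and 4035 CPM in WT NIR. Its WT sums did not overlap, and none of its genes was at 0. By mean relative log2 level the list was lower in the IR library of CM animal 3 (-0.07, against -0.04 in NIR) and higher in that of the other animals. On that measure the WT groups overlapped, with 0.09 in the IR library of WT animal 3 and 0.16 in the NIR library of WT animal 1. The part of these markers in the mitosis result was not tested.

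CM cells and WT cells differed little in the level of mitosis genes. Without irradiation 35 of the 46 had a higher fitted level in CM than in WT, against 52.6% of all genes, with a median log2 fold change of 0.06, against 0.02 for all genes. The highest of the 4 group means was that of CM NIR for 34 genes, WT NIR for 11 and CM IR for 1. After irradiation 30 were higher, against 52.9%, with a median of 0.04. No gene of the 46 passed in either comparison in edgeR, where 1.62% of all genes passed without irradiation and 0.664% after it. At an unadjusted p under 0.05, 3 were higher in CM without irradiation, against 8.56% of all genes, and 2 after it, against 7.19%, so these counts did not exceed the background. DESeq2 called Cdc25b and Bub1b higher in CM without irradiation and 0 after it, and limma-voom called 0 in each. Calls over all genes varied as well: among 10 alternatives that include DESeq2, 4 to 501 genes were called higher without irradiation.

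Cdc25b (chr2:131186948-131198511, plus strand) had the largest difference. It had 71.9, 45.3 and 47.0 CPM in CM IR, against 39.3, 36.8 and 36.8 CPM in WT IR, and 77.5, 57.5 and 74.7 CPM in CM NIR, against 43.2, 41.3 and 39.9 CPM in WT NIR. All CM libraries lay above all WT libraries in both comparisons. The log2 fold change was 0.54 ± 0.17 after irradiation (adjusted p = 0.207) and 0.75 ± 0.17 without it (adjusted p = 0.0649; 0.127 with the animal as a random block), and DESeq2 gave an adjusted p of 0.006 for the comparison without irradiation. In edgeR it passed when CM NIR replicate 2 was left out (0.88 ± 0.17, adjusted p = 0.0266) or when CM IR replicate 1 (0.76 ± 0.12, adjusted p = 0.0165) or CM IR replicate 2 (0.76 ± 0.16, adjusted p = 0.0491) was. The CM IR libraries are not part of this comparison. They bear on it only through the scaling, the filter and the spread estimated over all libraries. With 1 library left out, 4 to 519 of all genes were called higher in CM without irradiation. Within each of the 2 library number series every CM library had more Cdc25b than every WT library. With the series as a term the value without irradiation was 0.73 ± 0.18 (adjusted p = 0.0959), and without CM animal 3 it was 0.71 ± 0.195 (adjusted p = 0.17).

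Bub1b (chr2:118598211-118641592, plus strand), encoding the checkpoint protein BubR1, was next. It had 241, 219.6 and 232 CPM in CM IR, against 193, 204 and 209 CPM in WT IR, and 265, 237 and 288 CPM in CM NIR, against 208, 215 and 223 CPM in WT NIR. CM and WT libraries did not overlap in either comparison. The log2 fold change was 0.19 ± 0.08 after irradiation (adjusted p = 0.413) and 0.29 ± 0.08 without it (adjusted p = 0.129), and without CM NIR replicate 2 it was 0.36 ± 0.08 (adjusted p = 0.0385). Calls over all genes varied between such leave-outs, as given for Cdc25b. Cdca8, encoding borealin of the chromosomal passenger complex, averaged 112 ± 1.37 CPM in CM NIR, against 98.4 ± 3.51 CPM in WT NIR (0.19 ± 0.08, adjusted p = 0.28). All 5 genes of the Aurora and passenger role had a higher fitted level in CM in both comparisons. At the other end Mad2l1 had -0.25 ± 0.14 after irradiation and -0.24 ± 0.14 without it.

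Counting groups that did not overlap, 4 of the 46 were higher in CM IR than in WT IR (Bub1b, Birc5, Cdc25b and Racgap1), against 9.23% of all genes, and 2 were lower (Ccnb1 and Nek2), against 8.36%. Without irradiation 4 were higher in CM (Bub1b, Cdca8, Cdc25b and Kif2c), against 8.14%, and 0 lower, against 7.84%. The counts of higher genes are near the background shares, and those of lower genes are under them. Markers of other lineages differed in level between CM and WT libraries too, some without overlap. The summed level of an 8-gene mast cell and basophil list was 365 to 1595 CPM in CM IR, against 282 to 496 CPM in WT IR, and 306 to 1833 CPM in CM NIR, against 252 to 696 CPM in WT NIR, with none of its genes at 0. The mean relative log2 level of a 10-gene neutrophil list was -1.15 to 0.82 in CM IR, against 0.37 to 0.88 in WT IR, and -1.32 to -0.95 in CM NIR, against 0.41 to 1.58 in WT NIR, while its summed level was 205 to 1786.5 CPM in CM NIR, against 247 to 492 CPM in WT NIR. That of a 9-gene T and NK cell list was -1.02 to 0.34 in CM IR, against 0.34 to 0.43 in WT IR, and -0.92 to -0.63 in CM NIR, against 0.50 to 1.43 in WT NIR. Without irradiation both lists separated CM from WT libraries by relative level. A 7-gene megakaryocyte list had a summed level of 259 to 458 CPM in CM IR, against 119 to 190 CPM in WT IR, and 199 to 485 CPM in CM NIR, against 101 to 284 CPM in WT NIR. Its sums did not overlap after irradiation. In CM NIR and in CM IR the library of CM animal 2 had the lowest sum of the mast cell and basophil list and the lowest Cdc25b. The part of these markers in the CM and WT values of the mitosis genes was not tested.

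**Figure D5:**
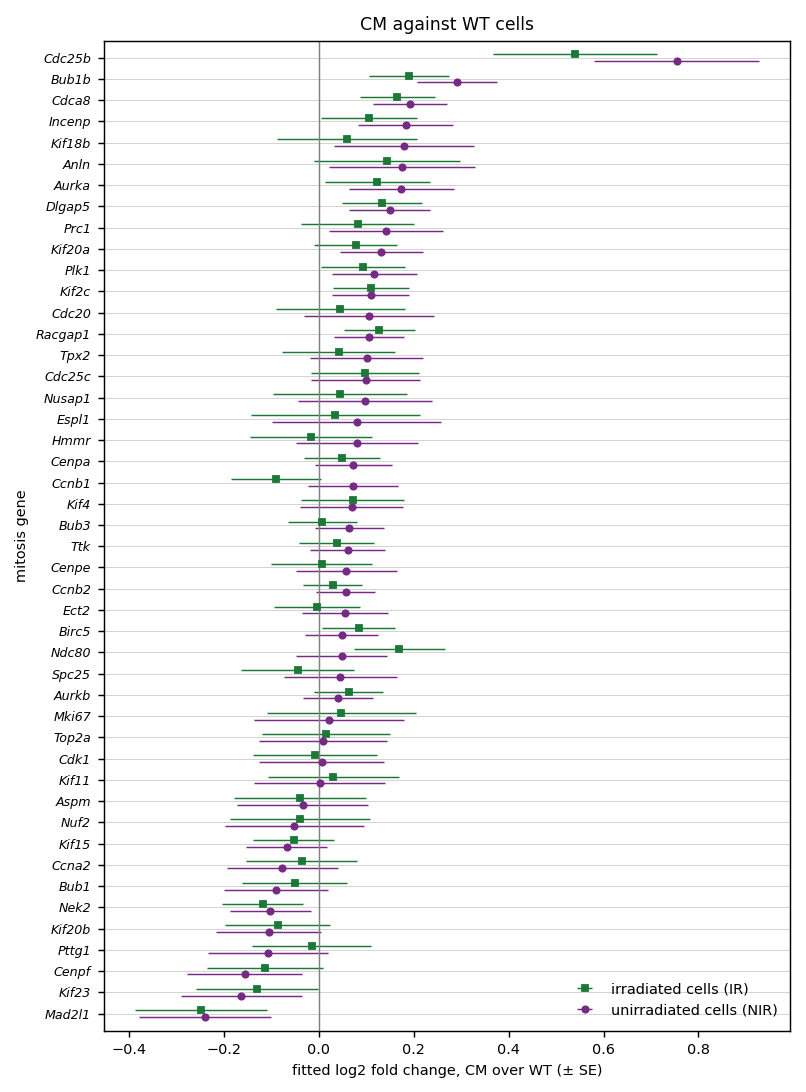
Fitted log2 fold change of CM over WT for each mitosis gene, after irradiation (squares) and without it (circles), with bars for 1 SE, ordered by the value without irradiation. Cdc25b lies apart at 0.54 and 0.75, and most other genes have bars that touch 0.

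Other genes of the mitotic pathway were described from lists in the same way over both genotypes. Of 26 other kinetochore genes, 25 had a fitted IR over NIR change below 0, with a median of -0.10, and 12 were lower in 6 of 6 animals; none passed, with or without the block. Ska1 (-0.29 ± 0.10) and Cenpu (-0.19 ± 0.07) had the smallest p. Of 19 condensin and cohesin genes, 19 were below 0, with a median of -0.13, and 12 were lower in 6 of 6 animals. With the block 3 of them were called lower: Ncapg, a condensin subunit (-0.25 ± 0.03, adjusted p = 0.0115), Smc4, its core ATPase (-0.23 ± 0.03, adjusted p = 0.0167), and Sgo1, the shugoshin that guards centromeric cohesin (-0.18 ± 0.03, adjusted p = 0.041); Smc4 and Sgo1 are named after their values were seen. Ncapg had 126, 114 and 128 CPM in CM IR, against 146, 130.04 and 152 CPM in CM NIR, and 115, 122 and 125 CPM in WT IR, against 139, 150.0 and 151 CPM in WT NIR.

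The anaphase promoting complex and its regulators stayed closer to 0, with 12 of 16 below 0 and a median of -0.03. Fbxo5, encoding the inhibitor EMI1, was the 1 gene of that list called with the block (-0.18 ± 0.03, adjusted p = 0.043). Among 11 genes of mitotic entry and exit, 9 were below 0 with a median of -0.03, and Mastl, the Greatwall kinase, was called lower with the block (-0.26 ± 0.04, adjusted p = 0.0355). Among 20 S phase genes 16 were below 0 with a median of -0.04, 5 were lower in 6 of 6 animals, and Ccne2, encoding cyclin E2, was called lower with the block (-0.24 ± 0.04, adjusted p = 0.041). Whether the mitosis and S phase lists differ was not tested.

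Of 14 genes for DREAM, MuvB, MYB and FOXM1, 10 were below 0 with a median of -0.07. Rbl2, encoding the DREAM pocket protein p130, was the 1 gene of the list called higher with the block (0.36 ± 0.04, adjusted p = 0.0167), and it was higher in 6 of 6 animals. It had 96.2, 118 and 112 CPM in CM IR, against 90.3, 94.8 and 97.3 CPM in CM NIR, and 127, 165 and 136 CPM in WT IR, against 92.4, 106 and 97.3 CPM in WT NIR. Within WT its blocked change was 0.52 ± 0.06 (adjusted p = 0.0184). Lin54, the MuvB subunit that contacts the CHR, was called lower with the block (-0.19 ± 0.03, adjusted p = 0.0479), and Foxm1 averaged 76.4 ± 6.75 CPM in CM IR, against 83.2 ± 13.3 CPM in CM NIR, and 66.7 ± 0.431 CPM in WT IR, against 73.0 ± 4.71 CPM in WT NIR; both were named after their values were seen.

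The p53 targets lay on the other side, with 14 of 15 above 0, a median of 0.79 and 11 higher in 6 of 6 animals. Cdkn1a, encoding p21, had 428, 379 and 303 CPM in CM IR, against 297, 160.2 and 281 CPM in CM NIR, and 447, 370.0 and 363 CPM in WT IR, against 243, 144 and 144 CPM in WT NIR. Its change was 0.91 ± 0.14 with the block (adjusted p = 0.0379) and 0.87 ± 0.19 without it (adjusted p = 0.146). Without the block Mdm2, which encodes the ligase that degrades p53, changed by 0.53 ± 0.07 (adjusted p = 0.00916), and Ccng1, encoding cyclin G1, by 1.45 ± 0.13 (adjusted p = 0.00211). The comparisons over both genotypes and within each genotype share libraries, so their values are not independent of one another.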

How the data were processed

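RNA from sorted LSK cells was sequenced as stranded, ribosome-depleted libraries, per the labels' protocols. The submitters' processing notes name bcl2fastq 2.18.0.12, TopHat2, HTSeq 0.6.1p1 and the mm10 build; the annotation and the strand setting of the counting are not stated there. The deposited counts are reads per gene, not normalized by the authors. The deposited RPKM values were normalized by the authors for exon length and depth. Coordinates are those of the deposited tables.

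Counts were tested with edgeR 4.0.16 (R 4.3.3; TMM scaling, filterByExpr with a minimum count of 10, quasi-likelihood test), with 1 mean per group over 12 libraries and 6 comparisons, each adjusted over 14599 genes by Benjamini-Hochberg. DESeq2 1.42.0, limma 3.58.1 (limma-voom), other scaling, no filter, log2(RPKM + 1) with limma and leaving out libraries were alternatives; the leave-out of whole animals and the random effect were added after seeing the data. The fits were also run on simulated data, with changes larger than those of the mitosis genes and no animal effect. That run therefore does not bear on the small changes called with the block. RPKM fold changes understate those of low genes.

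The library names give 1 IR and 1 NIR library the same number. The labels do not explain this number, and it was read as the animal, which makes the libraries a pair. Deviations from the group means correlated within every pair, at 0.13 to 0.84 over all genes, so the fit with the animal as a replicate block is printed beside the main results. Animals are the replicates.

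Members and lists were chosen with earlier results of these data known. Named genes are, per role, the 2 with the smallest p over both genotypes and the 1 with the smallest p between CM and WT without irradiation, any called member and up to 2 genes per related list; other genes named are those that a count or an order singles out, chosen after their values were seen.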

Additional observations from a re-analysis of the deposited data

Results flagged for a closer look

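Kif18b was the 1 mitosis gene whose irradiation change had opposite signs in all animals of the 2 genotypes. The share of all genes with this pattern was not counted, so 1 such gene cannot be set against a background. It had 54.9, 67.7 and 49.1 CPM in CM IR, against 58.9, 69.0 and 49.3 CPM in CM NIR, so that each CM animal was lower after irradiation, by 0.10, 0.03 and 0.01 on the log2 scale. It had 59.1, 52.0 and 53.6 CPM in WT IR, against 57.2, 48.6 and 50.8 CPM in WT NIR, so that each WT animal was higher, by 0.05, 0.10 and 0.08. The difference of the responses, CM minus WT, was -0.12 in edgeR without the block, with an unadjusted p of 0.575, and did not pass. With the animal as a random effect in limma-voom it was -0.12 ± 0.09 (unadjusted p = 0.204) and did not pass either.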

How the results depend on the processing

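The median IR over NIR change of the 46 genes stayed below 0 in each genotype and over both under every alternative run. In WT it was -0.119 with DESeq2 or its size factors, -0.112 without the filter, -0.106 on RPKM with a pseudocount of 1, filtered or not, and -0.11 with 0.1. Leaving out 1 library gave -0.164 to -0.0704 in WT, -0.175 to -0.0925 in CM and -0.161 to -0.102 over both, and -0.065 to 0.0285 for the difference of the responses. With the replicate block and 1 animal left out the median was -0.125 to -0.113 in WT; over both it was -0.109 with the block without CM animal 3 and -0.111 without the block and that animal. With the replicate block 1 mitosis gene was called lower in WT (0 to 3 with 1 animal left out) and 9 over both (0 to 9). With the random effect these were 2 and 17. Over all genes, calls in WT ran from 0 to 160 lower in the blocked fits with 1 animal left out. Among 10 other alternatives, which include the random effect, they ran from 0 to 120 lower in WT. Between CM and WT without irradiation DESeq2 called 2 higher, and leaving out 1 library gave 0 to 2; the random effect changed no call there. Cdc20 turned to -0.04 over both without CM IR replicate 2 (up to 0.109 without other libraries), and Pttg1 to -0.0054 with the block without WT animal 3. Mki67, CM over WT without irradiation, turned to -0.087 without WT NIR replicate 1, -0.073 without CM NIR replicate 3 and -0.072 without CM animal 3 (up to 0.108 without other libraries). The causes were not tested. Over all genes, calls over both genotypes ran from 0 to 282 lower and 4 to 411 higher across alternatives, and CM over WT without irradiation from 0 to 421 lower and 4 to 519 higher. With 3 animals a genotype, the change nearest 0 that was called with the block was -0.17, for Top2a.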

Other observations

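The libraries of a group kept similar places over many of the 46 genes. Among the 3 IR libraries of CM, that of animal 2 had the lowest CPM for 24 genes and that of animal 3 the highest for 24, and among the NIR libraries of CM the same animals had the lowest for 27 and the highest for 30. In WT, animal 1 had the lowest CPM for 32 genes in IR and 31 in NIR, and animal 3 the highest for 23 in each.

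The spread between the 3 libraries of a group was small for most of the genes, with a median coefficient of variation of 8.0% in CM IR, 9.67% in CM NIR, 7.16% in WT IR and 7.10% in WT NIR. The highest values were those of Cdc25b in CM IR (27.2%), Espl1 in CM NIR (27.1%), Nuf2 in WT IR (13.1%) and Aspm in WT NIR (15.7%).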
